A study of Mus musculus with 12 samples.

Results

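The comparison described here is between unstimulated bone marrow-derived macrophages that lack LKB1 (KO) and wild-type macrophages (WT). It used 6 of the 12 libraries of an RNA-seq study, the 3 KO mock and the 3 WT mock libraries, which were chosen by the genotype and treatment in their labels. M-CSF, which maintains the macrophage lineage, was given at 40 ng/ml for 7 days to turn marrow cells into macrophages, and mock cultures received no IL-4. KO cells carried floxed Stk11 alleles (Stk11 fl/fl) and the Cre recombinase of the LysMCre line, which is expressed from the lysozyme M locus Lyz2 in myeloid cells, whereas WT cells are labelled only as WT. KO and WT thus differ in the Cre insertion at Lyz2 as well as in Stk11, and the 2 cannot be told apart. The other 6 libraries, of equally numbered cultures with 20 ng/ml IL-4 for 24 h, shared the fit and its estimate of the spread. The labels do not say that the libraries numbered 1 to 3 came from separate mice, so p-values measure the spread between these libraries, which may in part be technical.

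Stk11 encodes LKB1, a serine/threonine kinase that works with the pseudokinase STRAD and the scaffold MO25 and switches on AMPK and a family of related kinases by phosphorylating their activation loop. Among its substrates, AMPK restrains the growth kinase mTORC1 and lipid synthesis when energy is low, and the SIK kinases hold the CRTC coactivators of the transcription factor CREB in the cytoplasm. Macrophages cultured with M-CSF are large phagocytic cells rich in lysosomes and in receptors for pathogens, antibodies and dying cells.

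Each of the 12 libraries held 30651627 to 39136822 counts over the 13715 genes of the deposited table. Values are given as CPM, counts scaled to a common TMM-adjusted library total, in the order of libraries 1, 2 and 3. Differences are log2 fold changes of KO over WT (log2FC in brackets), and p-values are from edgeR's quasi-likelihood test. The standard error (SE) was calculated from the weights and the spread of that fit, since the test itself gives none. A gene was called, and is said to have risen or fallen, when its p, adjusted by Benjamini-Hochberg across the 13715 genes, was under 0.05. The slope covariate is an alternative fit with each library's trend with gene length as a term, described with gene length. Errors after ± are SDs with n = 3 in each group.

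Stk11, on the plus strand of mm10 chromosome 10 from 80115803 to 80130682, stood at 44.9, 46.01 and 37.7 CPM in WT and 5.34, 3.87 and 8.77 CPM in KO, a log2 fold change of -2.84 with an SE of 0.24 (edgeR adjusted p = 3.8e-06). No KO library reached the lowest WT library. Lyz2 stood at 44637, 42157 and 39652 CPM in WT and 21618, 43.1 and 21044 CPM in KO. KO library 2 thus stood apart with almost no Lyz2 reads, and KO libraries 1 and 3 lay between it and the WT libraries. Over the 3 libraries Lyz2 was not called (log2FC -1.57, SE 1.37, edgeR adjusted p = 0.41), but without both KO 2 libraries it was (log2FC -0.96, edgeR adjusted p = 2.7e-05). Its neighbour Lyz1, whose near-identical sequence makes the split of reads between them uncertain, stood at 15.4, 13.4 and 14.6 CPM in WT and 33.9, 82.9 and 38.5 CPM in KO. Results that follow were therefore also computed without both KO 2 libraries. Both loci lie on chromosome 10, where 36.6% of 653 genes were called against 34.5% of all genes. Of the 191 genes within 5 Mb of Stk11 41.4% were called, and of the 39 within 5 Mb of Lyz2 35.9%. Whether DNA of another strain surrounds either locus was not tested. Lyz1 (2.48) differed by more than 1.5-fold from the values above with the slope covariate.

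The libraries carried macrophage markers at high levels in both genotypes. The 11 macrophage markers other than Lyz2 summed to 11800 to 12350 CPM in WT and 10440 to 12140 CPM in KO, so the groups overlapped. Within that list the M-CSF receptor gene Csf1r stood at 2599, 2375 and 2650.0 CPM in WT and 1802, 2009 and 2003 CPM in KO, with a log2 fold change of -0.39 (SE 0.07), and Itgam, which encodes CD11b, changed by -0.79 (SE 0.13). Of 13 measured neutrophil markers 11 rose and 1 fell, and their sum was 414.8 to 572.2 CPM in WT and 755.0, 1302 and 878.2 CPM in KO libraries 1, 2 and 3. Markers of dendritic cells summed to 200.1 to 234.3 CPM in WT and 44.6 to 71.5 CPM in KO, nearly all of it Itgax, which macrophages also express. Of the B cell markers, Ighm stood at 50.5, 42.1 and 46.1 CPM in WT and 10.3, 16.99 and 13.4 CPM in KO, whereas Cd79b stayed between 1.71 and 1.96 CPM in all 6 libraries. Pf4 made up nearly all of the megakaryocyte and platelet marker sum, but the defining marker Ppbp also rose, at 0, 0 and 0.053 CPM in WT and 0.393, 1.16 and 0.784 CPM in KO, on 2 reads in the WT libraries together and 12, 42 and 26 in KO (edgeR adjusted p = 3.5e-04). Itga2b was not called, at 0.256, 0.223 and 0.453 CPM in WT and 0.295, 1.71 and 0.181 CPM in KO, so that 2 of the 3 markers rose. Those of T and NK cells summed to at most 0.932 CPM and those of mast cells and basophils to at most 3.67 CPM in any library. In RNA of a whole culture, fewer cells of a type and less RNA per cell cannot be told apart, and the part of the neutrophil and platelet markers in the results below was not tested. Xist, the RNA of the inactive X chromosome, was present in all 6 libraries, at 26.9 to 66.4 CPM in WT and 15.9 to 22.4 CPM in KO. Csf1r (-0.15) and Itgam (-0.34) were not called with the slope covariate. Ighm (-1.16) differed by more than 1.5-fold from the values above with the slope covariate.

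Of the 13715 genes 4731 were called (34.5%), of which 2147 (15.7%) rose and 2584 (18.8%) fell. At least 2-fold changes were made by 248 rising genes (1.81%) and 593 falling genes (4.32%). The 3 KO libraries all lay above the 3 WT libraries for 3114 genes (22.7%) and all below them for 3426 genes (25%). Scaled by library size alone, 34.7% of the calls were rises against 45.4% with TMM, with 1572 genes up and 2959 down, and the median of all genes moved by 0.06 on the log2 scale. The shares of genes that rose and fell, 15.7% and 18.8%, are the background against which the counts of each gene class below were read.

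Among genes with a mean log2 CPM of at least 3 over the 12 libraries, the largest rises held secreted proteins, receptors and regulators that respond quickly to signals. Pf4 (ENSMUSG00000029373.7, chromosome 5, 90772435 to 90773383, plus strand, mm10), which encodes the CXC chemokine platelet factor 4, stood at 39.5, 57.6 and 43.9 CPM in WT and 583, 643 and 573 CPM in KO, a log2 fold change of 3.67 with an SE of 0.15 (edgeR adjusted p = 9.3e-09). Thbs1 (ENSMUSG00000040152.8, chromosome 2, 118111876 to 118127133, plus strand, mm10), which encodes the matricellular protein thrombospondin 1, stood at 112, 77.9 and 109 CPM in WT and 785, 1314 and 962 CPM in KO and rose by 3.36 with an SE of 0.22 (edgeR adjusted p = 1.3e-06). Hilpda (ENSMUSG00000043421.8, chromosome 6, 29272488 to 29275446, plus strand, mm10), whose product inhibits the triglyceride lipase ATGL on lipid droplets, stood at 19.4, 23.1 and 23.1 CPM in WT and 137, 151 and 139 CPM in KO, a log2 fold change of 2.699 with an SE of 0.11 (edgeR adjusted p = 7.3e-09). For these genes every KO library lay several fold above every WT library. The orphan nuclear receptor gene Nr4a1 (ENSMUSG00000023034.7, chromosome 15, 101254269 to 101274795, plus strand, mm10) stood at 10.1, 10.9 and 10.8 CPM in WT and 40.5, 43.6 and 39.1 CPM in KO and rose by 1.95 with an SE of 0.12 (edgeR adjusted p = 7.0e-07). Gpr35, a G protein-coupled receptor gene, stood at 2.79, 4.52 and 4.55 CPM in WT and 19.02, 19.8 and 15.9 CPM in KO (log2FC 2.20, SE 0.16). The early response gene Ier3 had 3.71 ± 0.734 CPM in WT and 13.7 ± 1.10 CPM in KO (log2FC 1.89, SE 0.13). Clec4n, which encodes the fungal receptor dectin-2, had 14.9 ± 2.69 CPM in WT and 54.7 ± 11.5 CPM in KO (log2FC 1.88, SE 0.23). Il1rn, which encodes the interleukin-1 receptor antagonist, had 11.9 ± 0.872 CPM in WT and 42.7 ± 5.83 CPM in KO (log2FC 1.84, SE 0.11), and B3gnt5, a glycosyltransferase gene of glycolipid synthesis, had 3.69 ± 0.779 CPM in WT and 12.4 ± 3.85 CPM in KO (log2FC 1.76, SE 0.27). Arg1, the arginase gene of alternative activation, rose by 2.39 (SE 0.36) from very low levels, 0.353, 0.287 and 0.213 CPM in WT and 2.23, 1.16 and 1.12 CPM in KO. With a mean log2 CPM of 6.70 over the 12 libraries, Arg1 passed the level rule only through the IL-4 libraries. Ltf, which encodes lactoferrin of neutrophil granules, stood at 33.01, 69.96 and 90.2 CPM in WT and 137, 329 and 191 CPM in KO (log2FC 1.77, SE 0.46). KO library 2 was highest, as in the sum of the neutrophil markers, which includes Ltf. Thbs1 (4.30) differed by more than 1.5-fold from the values above with the slope covariate. Ltf (2.38) was not called with the slope covariate.

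**Figure D1:**
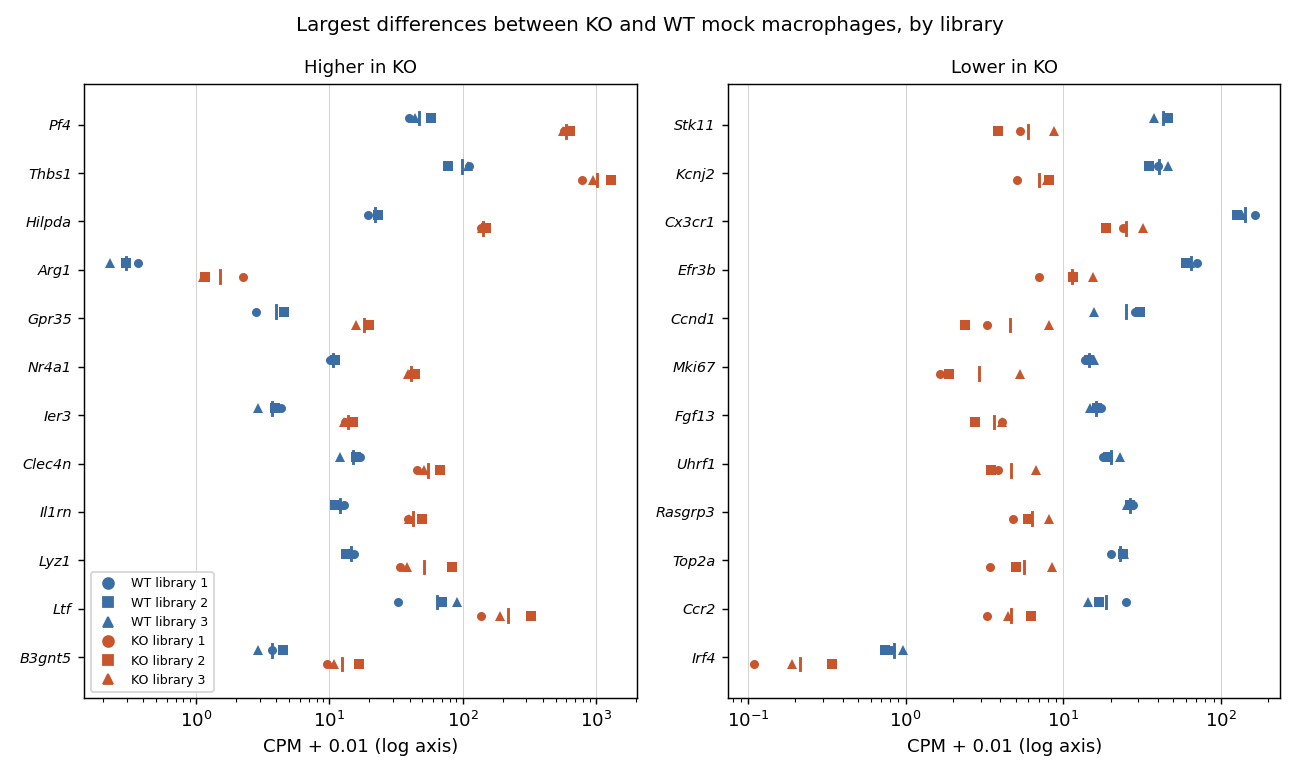
Level of the 12 genes with the largest rises (left) and the 12 with the largest falls (right) in each mock library, among genes with a mean log2 CPM of at least 3, in CPM with 0.01 added on a log axis. Blue marks are WT and orange marks are KO libraries, shapes give the library number, and short vertical lines the mean of 3 libraries. For each of the 24 genes the KO libraries lie on one side of all WT libraries, which the rule required. Arg1 and Irf4 reached the mean log2 CPM of 3 only through the IL-4 libraries.

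Kcnj2 (ENSMUSG00000041695.2, chromosome 11, 111066164 to 111076821, plus strand, mm10), which encodes the inward-rectifier potassium channel Kir2.1, led the falls after Stk11 in genes of that level, at 40.03, 35.3 and 46.3 CPM in WT and 5.12, 8.09 and 7.87 CPM in KO and a log2 fold change of -2.52 with an SE of 0.20 (edgeR adjusted p = 2.6e-06). Cx3cr1 (ENSMUSG00000052336.7, chromosome 9, 119901616 to 120069879, minus strand, mm10), the fractalkine receptor gene of monocytes and tissue macrophages, stood at 166, 127 and 136 CPM in WT and 23.8, 18.8 and 32.1 CPM in KO, a log2 fold change of -2.52 with an SE of 0.22 (edgeR adjusted p = 5.4e-06). Efr3b, whose product anchors a phosphatidylinositol 4-kinase at the plasma membrane, stood at 70.7, 60.3 and 64.1 CPM in WT and 7.05, 11.5 and 15.4 CPM in KO, a log2 fold change of -2.52 with an SE of 0.23 (edgeR adjusted p = 9.4e-06). For these 3 genes the highest KO library lay far below the lowest WT library. Fgf13, an intracellular member of the FGF family that binds sodium channels, had 16.2 ± 1.29 CPM in WT and 3.63 ± 0.779 CPM in KO (log2FC -2.16, SE 0.18), and Rasgrp3, an exchange factor for Ras and Rap, had 26.7 ± 1.22 CPM in WT and 6.30 ± 1.70 CPM in KO (log2FC -2.08, SE 0.16). Irf4, a transcription factor gene of alternative activation, stood at 0.801, 0.732 and 0.958 CPM in WT and 0.098, 0.332 and 0.181 CPM in KO (log2FC -1.98, SE 0.48). With a mean log2 CPM of 3.08 over the 12 libraries, Irf4 passed the level rule only through the IL-4 libraries. Ccr2, the receptor gene that brings monocytes out of the marrow, stood at 25.2, 16.7 and 14.4 CPM in WT and 3.28, 6.22 and 4.46 CPM in KO (log2FC -1.999, SE 0.29). The other falls of this set were proliferation genes, Ccnd1 (log2FC -2.45, SE 0.38), Mki67 (log2FC -2.32, SE 0.30), Uhrf1 (log2FC -2.10, SE 0.20) and Top2a (log2FC -2.02, SE 0.26). For each of them all 3 KO libraries were below all WT libraries, which the rule for this set required. In the list of 28 G2 phase and mitosis genes there were 27 falls and 0 rises, with a median log2 fold change of -1.65, and with the slope covariate 16 fell. Kcnj2 (-1.62), Efr3b (-1.74), Ccnd1 (-3.09) and Top2a (-1.21) differed by more than 1.5-fold from the values above with the slope covariate. Irf4 (-1.38) and Ccr2 (-1.27) were not called with the slope covariate. Ccnd1 (-3.15) and Mki67 (-3.05) differed by more than 1.5-fold from the values above without KO mock library 3.

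Promoters are shown for 3 of these rises and for Kcnj2, because the SIK and CRTC branch below LKB1 acts through CREB, whose site can be looked for in them. The core of the CREB site is TGACG, and the full palindromic site is TGACGTCA, which contains the core. Both were searched on both strands from 250 bases before to 50 bases after the start of transcription in RefSeq's annotation of GRCm38.p6. Capitals mark TGACG, or its reverse complement CGTCA, and for Kcnj2 the E-box CACGTG, which is its own reverse complement and is bound by factors such as MYC, CLOCK and TFEB.

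Nr4a1, chr15:101266596-101266895, plus strand: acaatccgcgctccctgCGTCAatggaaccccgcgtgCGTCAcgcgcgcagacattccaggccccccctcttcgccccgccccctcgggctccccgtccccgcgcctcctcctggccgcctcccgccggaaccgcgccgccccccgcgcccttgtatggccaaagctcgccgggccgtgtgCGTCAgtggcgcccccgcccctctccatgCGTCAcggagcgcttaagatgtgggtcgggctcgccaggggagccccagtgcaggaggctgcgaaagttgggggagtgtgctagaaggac

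Hilpda, chr6:29272376-29272675, plus strand: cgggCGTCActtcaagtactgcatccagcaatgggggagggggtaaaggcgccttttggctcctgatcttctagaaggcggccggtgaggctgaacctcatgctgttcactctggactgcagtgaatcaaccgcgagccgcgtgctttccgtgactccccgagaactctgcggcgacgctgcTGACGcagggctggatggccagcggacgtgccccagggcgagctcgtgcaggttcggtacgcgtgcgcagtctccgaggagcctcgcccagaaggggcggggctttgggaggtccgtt

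Kcnj2, chr11:111065914-111066213, plus strand: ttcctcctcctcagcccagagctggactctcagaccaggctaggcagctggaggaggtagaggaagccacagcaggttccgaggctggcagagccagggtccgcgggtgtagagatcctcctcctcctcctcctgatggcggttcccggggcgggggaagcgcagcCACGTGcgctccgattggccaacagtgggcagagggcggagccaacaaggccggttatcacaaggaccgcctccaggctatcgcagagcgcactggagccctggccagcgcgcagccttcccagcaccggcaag

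Pf4, chr5:90772185-90772484, plus strand: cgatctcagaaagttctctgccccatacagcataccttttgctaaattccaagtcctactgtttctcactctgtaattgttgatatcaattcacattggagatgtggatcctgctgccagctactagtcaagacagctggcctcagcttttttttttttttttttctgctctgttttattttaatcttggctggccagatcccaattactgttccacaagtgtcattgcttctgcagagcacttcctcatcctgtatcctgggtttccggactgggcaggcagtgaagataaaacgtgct

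The Nr4a1 window held the core at 4 places, which start at positions -233, -213, -69 and -40 from the start of transcription, all on the minus strand. Hilpda has 2 windows in RefSeq, and the one shown held it at -246 on the minus and -68 on the plus strand. Neither Pf4 nor Kcnj2 held it, and Kcnj2 held the E-box at -84. Across the 9924 genes of the table with a promoter in RefSeq, 35.5% held TGACG, 3.62% TGACGTCA and 11.9% CACGTG. Among the 176 such genes that rose at least 2-fold the shares were 18.2%, 1.14% and 10.8%, and among the 394 that fell at least 2-fold they were 26.9%, 2.79% and 8.88%. The promoters of these sets also held fewer CG pairs, at a mean of 11.6 for the rises and 19.1 for the falls against 20.3 over all genes, and the motif contains a CG. Of the 24 genes plotted by library above 20 had an entry, and TGACG was present in 5, 3 rises and 2 falls. A match of letters is a description of the window and no evidence of binding.

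Gene length moved with the comparison across the whole table. Genes were sorted by exonic length into 10 groups of nearly equal number. The longest group, 9421 to 123179 bases, held 4.3% rises and 47.4% falls, with a median log2 fold change of -0.35. The shortest group, 56 to 1321 bases, held 14.2% rises and 5.1% falls, with a median of 0.10, and the next group, 1323 to 2048 bases, 26.8% rises and 7.37% falls. Spearman's correlation between the log2 fold change and length was -0.29 over 13715 genes and -0.48 over the 8198 genes with a mean log2 CPM of at least 3, as a description across genes that share the same libraries. The lean differed by library. The slope of log2 expression on log2 length, each relative to the mean of all libraries, was 0.0817, 0.0276 and 0.108 in WT mock libraries 1, 2 and 3 and -0.167, -0.0528 and -0.0721 in the KO mock libraries, with KO library 1 lowest. The groups did not overlap and differed by -0.17 (exact two-sided permutation test, p = 0.1, the smallest p that 20 regroupings of 3 and 3 allow). Libraries of the same genotype also differed among themselves, since the deviation of a library from its group mean had a Spearman correlation with length of -0.01, -0.21 and 0.19 in WT and -0.34, 0.23 and 0.19 in KO. With IL-4 the mean slopes were 0.0273 ± 0.076 in WT and -0.00249 ± 0.0195 in KO, and the Spearman correlation of the KO against WT difference with length was -0.05.

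The trend was followed with 2 alternatives. A length correction, which removes a smooth curve of each library's deviation on length, left 2081 rises (15.2%) and 2312 falls (16.9%), of which 3323 were calls of the same direction as before and 2 of the opposite one. A fit with the library's slope as a covariate, called the slope covariate below, left 566 rises (4.13%) and 713 falls (5.2%), of which 979 were shared in direction and 1 was opposite. That covariate separates the genotypes in the mock libraries without overlap. In the mock libraries a difference that follows genotype and one that follows the slope thus cannot be told apart, and calls are lost under it for either. The fit takes the effect of the slope from differences among libraries of the same group, over all 12 libraries. Under the slope covariate estimates moved as well as calls, such as Fnip2 from -1.004 to -0.10 and Thbs1 from 3.36 to 4.30. Of the 23 plotted genes other than Stk11, the calls of 20 held under it, the exceptions being Ltf, Ccr2 and Irf4. By gene type, 2078 of 11696 protein-coding genes rose (17.8%) and 2421 fell (20.7%), while of 1045 long noncoding RNA genes 36 rose and 87 fell.

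**Figure D2:**
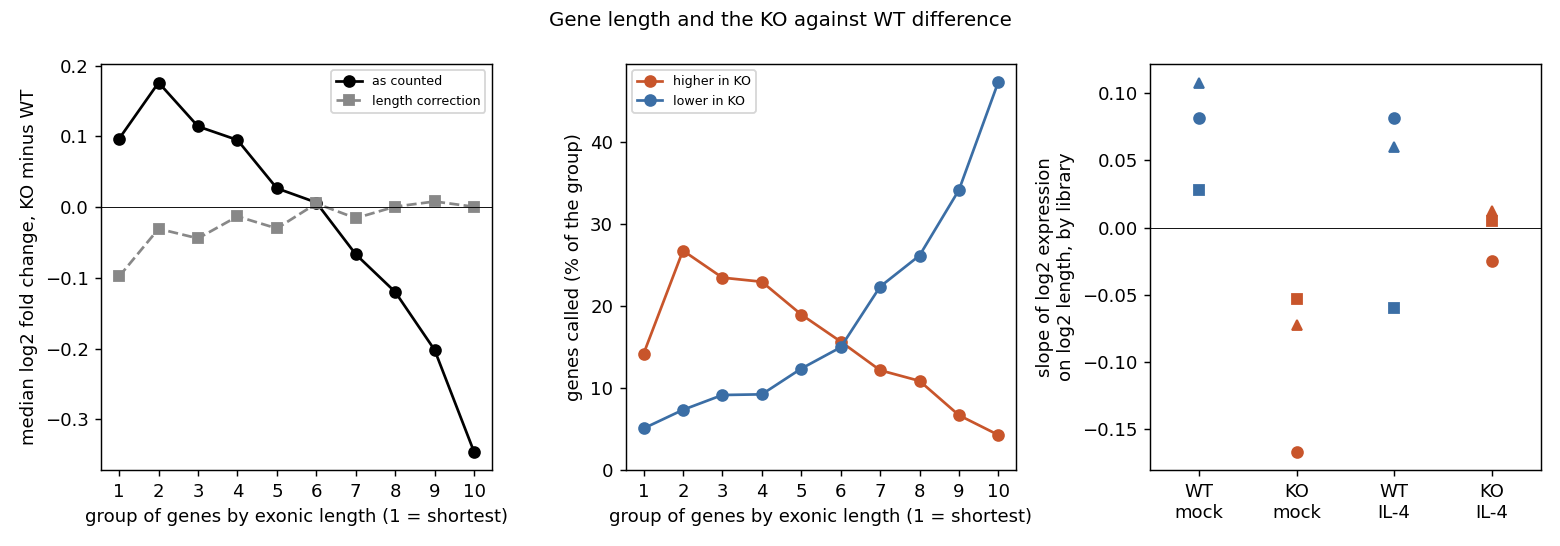
Left, median log2 fold change of KO over WT in mock for each of 10 groups of the 13715 genes by exonic length, as counted and with the length correction. Middle, percent of each group that rose (orange) or fell (blue), which cross near group 6, and right, the slope of log2 expression on log2 length of each of the 12 libraries, where KO mock libraries (-0.167 to -0.0528) lie below WT mock libraries (0.0276 to 0.108).

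For each class, brackets give the percents of its measured members that rose and fell, to be read against 15.7% and 18.8% of all genes, and then the counts that rose and fell with the length correction and with the slope covariate. Among targets of CREB and its CRTC coactivators 11 of 24 rose and 3 fell (45.8% and 12.5%; 11 and 6 with the length correction, 9 and 1 with the slope covariate). Their median of 0.68, against -0.02 for all genes, was the highest of the 61 classes, but over the 18 members with a mean log2 CPM of at least 1 it was 0.03, with 8 rises and 4 falls. Members of the classes were chosen with earlier results of these data known, so this rank is a description and no test. Besides Thbs1 and Nr4a1 the risers included Vegfa, which encodes the angiogenic growth factor VEGF-A, at 52.8, 39.04 and 47.3 CPM in WT and 142, 158 and 115 CPM in KO (log2FC 1.58, SE 0.14, edgeR adjusted p = 4.7e-06). Dusp1, which encodes a phosphatase of MAP kinases, had 39.8 ± 4.58 CPM in WT and 84.2 ± 0.978 CPM in KO (log2FC 1.08, SE 0.10). Fos, the AP-1 subunit gene and a classical CREB target, rose by 0.68 (SE 0.08). The class also holds targets that fell, among them Sik1, which encodes an LKB1-dependent kinase that itself restrains CRTC, at 10.96, 12.4 and 12.2 CPM in WT and 5.74, 9.25 and 7.90 CPM in KO (log2FC -0.63, SE 0.14, edgeR adjusted p = 0.0036). The WT and KO libraries of Sik1 did not overlap. Sik1 (-0.51) was not called with the slope covariate.

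**Figure D3:**
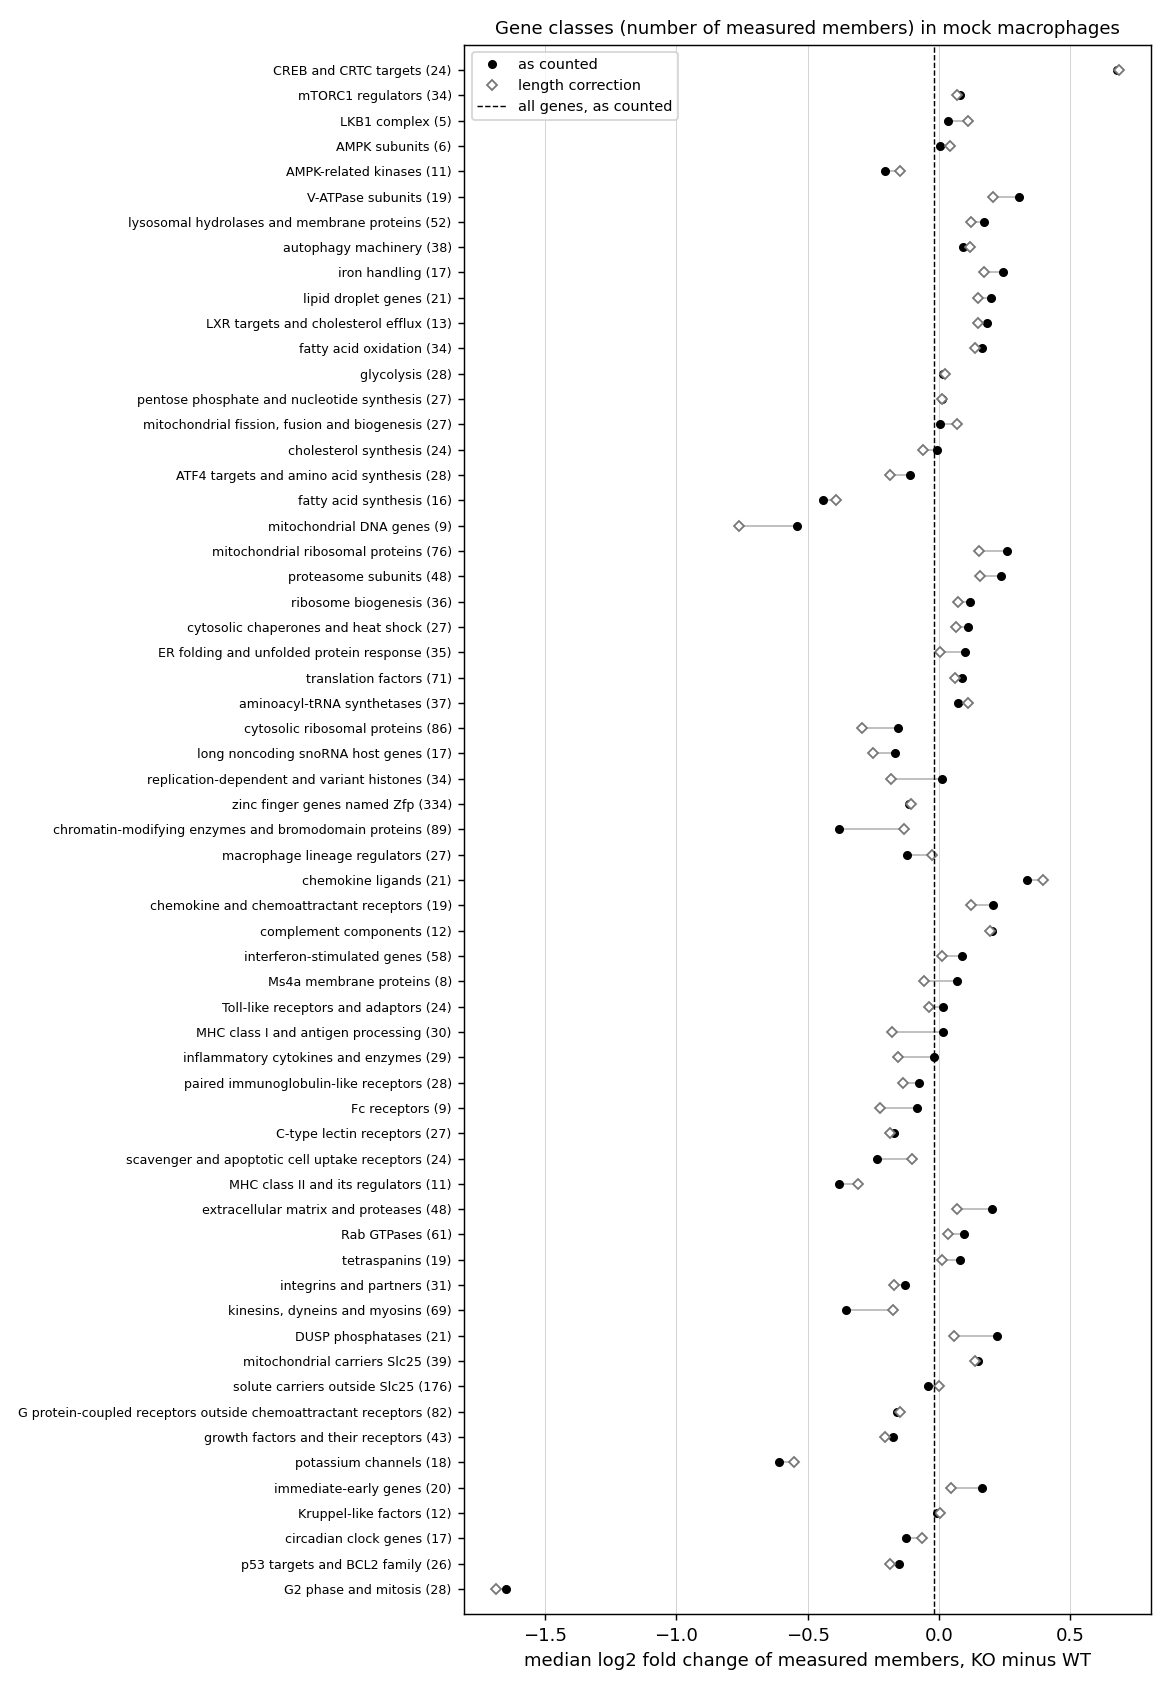
Median log2 fold change of KO over WT in mock for the measured members of each of 61 gene classes, grouped by role, as counted (filled circles) and with the length correction (open diamonds), with a dashed line at the median of all genes, -0.02. The number of measured members follows each name, and CREB and CRTC targets lie furthest right and G2 phase and mitosis furthest left. Members were chosen with earlier results of these data known.

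Genes of the kinases that LKB1 activates form small classes, so their shares rest on few members. Of 6 AMPK subunit genes 1 rose and 0 fell (16.7% and 0%; 0 and 0 with the length correction, 0 and 0 with the slope covariate). Of 11 genes of the AMPK-related family, Sik1 among them, 1 rose and 3 fell (9.09% and 27.3%; 2 and 2 with the length correction, 1 and 1 with the slope covariate), and Mark3, a microtubule affinity-regulating kinase, was the riser, at 54.1, 50.5 and 54.7 CPM in WT and 67.1, 66.6 and 60.7 CPM in KO (log2FC 0.29, SE 0.07, edgeR adjusted p = 0.0072). Stradb, one of the genes of the pseudokinase that binds LKB1, rose by 0.35 (SE 0.07). Regulators of mTORC1 were divided, with 13 of 34 up and 13 down (38.2% and 38.2%; 12 and 11 with the length correction, 1 and 5 with the slope covariate). Mitf, a lysosomal transcription factor of macrophages and osteoclasts, stood at 59.3, 51.3 and 46.5 CPM in WT and 20.4, 19.7 and 25.3 CPM in KO and changed by -1.26 with an SE of 0.15 (edgeR adjusted p = 4.2e-05). Tsc1, whose product with tuberin inhibits mTORC1, stood at 33.1, 25.7 and 31.2 CPM in WT and 17.7, 19.5 and 16.2 CPM in KO (log2FC -0.75, SE 0.11). Fnip2, whose product binds folliculin and AMPK, changed by -1.004 (SE 0.19), Mtor itself by -0.73 (SE 0.14) and Rptor, the scaffold of mTORC1, by -0.64 (SE 0.12). KO libraries lay below WT libraries for each of these fallers. Tbc1d7, the third subunit of the TSC complex, moved the other way (log2FC 0.58, SE 0.10), and so did Sesn2, a stress-induced inhibitor of mTORC1 (log2FC 0.54, SE 0.09). Stradb (0.33), Fnip2 (-0.10), Mtor (-0.22), Rptor (-0.18), Tbc1d7 (0.39) and Sesn2 (0.44) were not called with the slope covariate. AMPK-related kinases had 1 without WT library 2, WT library 3 or KO library 3 in place of 3 falls.

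Among the called genes of the lysosome most were higher in KO. Of 52 hydrolases and membrane proteins 23 rose and 5 fell (44.2% and 9.62%; 22 and 5 with the length correction, 7 and 1 with the slope covariate), and of 19 subunits of the proton pump V-ATPase 11 rose and 1 fell (57.9% and 5.26%; 13 and 1 with the length correction, 4 and 1 with the slope covariate). Ctsl, which encodes the protease cathepsin L, stood at 3258, 4309.5 and 3686 CPM in WT and 9389.7, 9918 and 10073 CPM in KO and rose by 1.38 with an SE of 0.12 (edgeR adjusted p = 6.1e-06). Every KO library held more than 2 times the Ctsl of every WT library. Acp5, the tartrate-resistant phosphatase gene of osteoclasts, had 62.6 ± 3.23 CPM in WT and 143 ± 3.27 CPM in KO (log2FC 1.19, SE 0.07). Atp6v1h, a subunit of the pump's peripheral sector, rose by 0.47 (SE 0.06), whereas Atp6v0a1, of its membrane sector, stood at 593, 595 and 580.0 CPM in WT and 279, 314 and 352 CPM in KO and fell by a log2 fold change of -0.90 with an SE of 0.09 (edgeR adjusted p = 9.4e-06). In autophagy 10 of 38 genes rose and 3 fell (26.3% and 7.89%; 14 and 3 with the length correction, 4 and 1 with the slope covariate). Sqstm1, the receptor p62, stood at 1045, 1051 and 1078 CPM in WT and 1559.7, 1430.0 and 1404 CPM in KO (log2FC 0.47, SE 0.07), and Tax1bp1, another autophagy receptor, rose by 0.39 (SE 0.10). Ulk1, the kinase gene that starts autophagosome formation, moved the other way, at 58.3, 55.5 and 61.04 CPM in WT and 35.9, 43.1 and 41.5 CPM in KO (log2FC -0.54, SE 0.08). Sqstm1 (0.29) was not called with the slope covariate. Lysosomal hydrolases and membrane proteins had 3 without WT library 1, WT library 2, WT library 3 or KO library 1 and 9 with library size alone in place of 5 falls.

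Lipid genes were divided by pathway. In fatty acid synthesis 8 of 16 genes fell and 1 rose (6.25% and 50%; 1 and 8 with the length correction, 0 and 1 with the slope covariate), and in fatty acid oxidation 17 of 34 rose and 3 fell (50% and 8.82%; 11 and 2 with the length correction, 4 and 1 with the slope covariate). Fads1, a desaturase gene for polyunsaturated fatty acids, stood at 169, 152 and 151 CPM in WT and 84.3, 97.6 and 100.3 CPM in KO (log2FC -0.74, SE 0.09, edgeR adjusted p = 4.5e-05). Fads2, the companion desaturase, had 15.04 ± 1.14 CPM in WT and 5.48 ± 1.32 CPM in KO (log2FC -1.45, SE 0.22), and Fasn, the fatty acid synthase gene, 49.1 ± 8.81 CPM in WT and 20.3 ± 5.51 CPM in KO (log2FC -1.27, SE 0.19). All KO libraries were below all WT libraries for these 3 genes. Cd36, which encodes a fatty acid and oxidized lipoprotein receptor, stood at 1767, 2059.5 and 1914 CPM in WT and 3046, 3349 and 2997 CPM in KO (log2FC 0.71, SE 0.10, edgeR adjusted p = 1.3e-04). Slc25a20, the carnitine carrier of mitochondria, rose by 0.53 (SE 0.08), and Lpl, the secreted lipoprotein lipase, changed by -0.78 (SE 0.11). Of 21 lipid droplet genes 9 rose and 3 fell (42.9% and 14.3%; 9 and 2 with the length correction, 4 and 1 with the slope covariate). Besides Hilpda these included the coat protein gene Plin2, at 3574, 3910.3 and 4282 CPM in WT and 8209, 6987 and 6988 CPM in KO (log2FC 0.91, SE 0.10), and Bscl2, which encodes seipin of the droplet's contact with the endoplasmic reticulum (log2FC 0.57, SE 0.06). Lpin2, a phosphatidate phosphatase gene, was higher too (log2FC 0.47, SE 0.10). Cholesterol synthesis genes showed 3 rises and 6 falls among 24 (12.5% and 25%; 1 and 5 with the length correction, 0 and 0 with the slope covariate), and the sign of their median differed between settings. Fads2 (-0.84), Fasn (-0.64) and Slc25a20 (0.32) were not called with the slope covariate. Fatty acid oxidation had 11 with library size alone in place of 17 rises. Lipid droplet genes had 1 without WT library 1, WT library 2, WT library 3, KO library 1 or both KO 2 libraries in place of 3 falls. Cholesterol synthesis had 0 without KO library 3 and 1 with library size alone, without WT library 3 or KO library 1 in place of 3 rises, and 2 without WT library 1, KO library 1 or both KO 2 libraries and 3 without WT library 2 or WT library 3 in place of 6 falls.

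In central metabolism 9 of 28 glycolysis genes rose and 6 fell (32.1% and 21.4%; 9 and 8 with the length correction, 4 and 1 with the slope covariate), and the sign of the class median flipped with library size alone. Ldha, the lactate dehydrogenase gene, had 1045 ± 45.6 CPM in WT and 1521 ± 26.8 CPM in KO (log2FC 0.54, SE 0.06), and Pkm, the pyruvate kinase gene, 2097 ± 108 CPM in WT and 2881 ± 29.6 CPM in KO (log2FC 0.46, SE 0.07). Slc2a6, a glucose transporter family gene, went the other way, at 24.97, 19.8 and 17.6 CPM in WT and 8.16, 11.5 and 8.95 CPM in KO (log2FC -1.12, SE 0.17, edgeR adjusted p = 3.3e-04). Targets of ATF4 and amino acid synthesis genes had 5 rises and 10 falls among 28 (17.9% and 35.7%; 6 and 9 with the length correction, 4 and 3 with the slope covariate). Slc7a11, the cystine importer gene, stood at 14.6, 11.8 and 11.2 CPM in WT and 22.3, 41.1 and 25.2 CPM in KO (log2FC 1.247, SE 0.21, edgeR adjusted p = 5.8e-04), and its heavy chain partner Slc3a2 rose by 0.72 (SE 0.07). Phgdh, the first enzyme of serine synthesis, stood at 2.31, 3.47 and 2.69 CPM in WT and 1.41, 1.44 and 1.06 CPM in KO and fell by a log2 fold change of -1.11 (SE 0.20), as did Slc7a1, a transporter of arginine and lysine (log2FC -1.11, SE 0.16). The transporters of this class thus moved in opposite directions. Among iron genes 8 of 17 rose and 4 fell (47.1% and 23.5%; 9 and 4 with the length correction, 4 and 1 with the slope covariate). Slc40a1, the iron exporter ferroportin, stood at 126, 125 and 134 CPM in WT and 334, 325 and 293 CPM in KO (log2FC 1.31, SE 0.11, edgeR adjusted p = 3.6e-06), and Trf, which encodes the iron carrier transferrin, rose by 0.60 (SE 0.08). Steap3, an endosomal ferrireductase gene, changed by -0.57 (SE 0.07). Slc7a11 (1.92) differed by more than 1.5-fold from the values above with the slope covariate. Glycolysis had 2 without WT library 3 or KO library 1 and 3 without WT library 1 or both KO 2 libraries in place of 6 falls.

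Genes of protein synthesis and turnover differed by compartment, and their counts depended on how length was treated. Of 76 mitochondrial ribosomal protein genes 42 rose and 0 fell (55.3% and 0%; 22 and 0 with the length correction, 0 and 0 with the slope covariate), with a median of 0.26 that was -0.01 under the slope covariate. Of 48 proteasome genes 27 rose and 1 fell (56.2% and 2.08%; 20 and 1 with the length correction, 1 and 2 with the slope covariate), with Psmb5, a catalytic subunit, among the rises at 137 ± 8.12 CPM in WT and 199 ± 14.3 CPM in KO (log2FC 0.54, SE 0.09). The 1 faller, matched by its name, was Psmc3ip, a meiotic recombination factor and no subunit. Genes of cytosolic ribosomal proteins, of a median length of 1736 bases, did not rise with them, with 8 of 86 lower and 1 higher (1.16% and 9.3%; 1 and 51 with the length correction, 0 and 53 with the slope covariate), and the riser was Rpl7l1, a paralogue of Rpl7. Their median of -0.16 was -0.29 with the length correction, so both length alternatives gave more falls. Rpl10a, of the large subunit, had 42.9 ± 3.41 CPM in WT and 31.2 ± 1.99 CPM in KO (log2FC -0.46, SE 0.11). Of 71 genes named as translation factors 15 rose and 12 fell (21.1% and 16.9%; 13 and 13 with the length correction, 1 and 4 with the slope covariate). Eif4ebp2, a translation repressor that mTORC1 controls, stood at 30.9, 30.4 and 23.96 CPM in WT and 19.4, 17.6 and 20.7 CPM in KO (log2FC -0.56, SE 0.13). Of 9 genes of mitochondrial DNA 5 fell and 0 rose (0% and 55.6%; 0 and 7 with the length correction, 0 and 1 with the slope covariate). Psmb5 (0.19) was not called with the slope covariate. Mitochondrial ribosomal proteins had 20 without KO library 1, 23 without WT library 3 and 27 with library size alone in place of 42 rises. Proteasome subunits had 17 without KO library 1 in place of 27 rises. Cytosolic ribosomal proteins had 1 without WT library 1, WT library 2 or both KO 2 libraries, 2 without KO library 1, 3 without KO library 2, 18 with library size alone and 22 without WT library 3 in place of 8 falls. Mitochondrial DNA genes had 2 without WT library 1 or KO library 1 and 3 without WT library 2 or KO library 3 in place of 5 falls.

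Chromatin regulators fell more often than they rose. Of 89 genes of chromatin-modifying enzymes and bromodomain proteins 46 fell and 4 rose (4.49% and 51.7%; 12 and 26 with the length correction, 1 and 14 with the slope covariate), in a class whose members have a median length of 8443 bases against 4043 over all genes. Hdac9, a class IIa histone deacetylase gene, stood at 11.4, 11.7 and 11.95 CPM in WT and 2.26, 3.07 and 3.95 CPM in KO (log2FC -1.91, SE 0.23, edgeR adjusted p = 6.0e-05). Tet3, which oxidizes 5-methylcytosine, had 39.9 ± 6.90 CPM in WT and 17.7 ± 2.56 CPM in KO (log2FC -1.17, SE 0.17). Ep300, the acetyltransferase p300 that CREB recruits, had 61.5 ± 4.03 CPM in WT and 30.3 ± 4.15 CPM in KO (log2FC -1.02, SE 0.10), and Dot1l, the methyltransferase of lysine 79 of histone H3, 44.2 ± 2.78 CPM in WT and 22.1 ± 4.50 CPM in KO (log2FC -1.001, SE 0.13). These 4 genes kept their calls under both length alternatives. Of 334 zinc finger genes named Zfp 59 fell and 15 rose (4.49% and 17.7%; 22 and 42 with the length correction, 4 and 11 with the slope covariate), a share of falls close to that of all genes and fewer rises, and Zfp618 (log2FC -2.79, SE 0.35) and Zfp217 (log2FC -1.28, SE 0.24) were among the falls. Among regulators of the macrophage lineage 8 of 27 rose and 7 fell (29.6% and 25.9%; 5 and 10 with the length correction, 2 and 6 with the slope covariate). Id3, an inhibitor of E-protein transcription factors, stood at 21.2, 20.6 and 14.6 CPM in WT and 55.3, 40.7 and 42.1 CPM in KO (log2FC 1.29, SE 0.17, edgeR adjusted p = 1.2e-04), and Cebpb, a regulator of myeloid activation, rose by 1.08 (SE 0.10). Runx1, a factor needed for blood cell formation, fell by a log2 fold change of -0.71 (SE 0.09). Hdac9 (-1.24) and Id3 (0.59) differed by more than 1.5-fold from the values above with the slope covariate. Chromatin-modifying enzymes and bromodomain proteins had 2 with library size alone, without WT library 1 or KO library 1 in place of 4 rises. Zinc finger genes named Zfp had 7 without WT library 1 or KO library 1 and 8 with library size alone in place of 15 rises, and 33 without KO library 1, 35 without WT library 3 and 36 without WT library 1 in place of 59 falls. Macrophage lineage regulators had 12 with library size alone in place of 7 falls.

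Among early response genes 9 of 20 rose and 4 fell (45% and 20%; 7 and 6 with the length correction, 4 and 3 with the slope covariate), and among DUSP phosphatases, which inactivate kinases of the MAP family, 4 of 21 rose and 7 fell (19% and 33.3%; 4 and 6 with the length correction, 2 and 1 with the slope covariate). Clock genes had 3 rises and 5 falls among 17 (17.6% and 29.4%; 3 and 3 with the length correction, 2 and 2 with the slope covariate). Targets of p53 and the BCL2 family had 5 rises and 8 falls among 26 (19.2% and 30.8%; 4 and 8 with the length correction, 3 and 6 with the slope covariate). Dusp5, a nuclear phosphatase of ERK, stood at 6.57, 8.31 and 7.13 CPM in WT and 17.7, 25.1 and 21.1 CPM in KO (log2FC 1.54, SE 0.16, edgeR adjusted p = 1.6e-05), whereas Dusp6, a cytoplasmic one, stood at 58.2, 58.4 and 55.2 CPM in WT and 38.7, 37.2 and 43.2 CPM in KO (log2FC -0.53, SE 0.10, edgeR adjusted p = 0.0011). The 2 ERK phosphatase genes thus moved in opposite directions, and neither had overlapping groups. Myc changed by -0.996 (SE 0.15) and Nfil3, a clock output repressor, by 0.88 (SE 0.12). Cry1, a core repressor of the clock, rose by 0.56 (SE 0.08), while Npas2, a partner of BMAL1, changed by -1.90 (SE 0.37). In the BCL2 family the survival-promoting Bcl2, at 7.69, 6.59 and 6.92 CPM in WT and 2.07, 2.68 and 2.80 CPM in KO (log2FC -1.48, SE 0.16, edgeR adjusted p = 2.1e-05), and Bcl2l1, which encodes BCL-XL (log2FC -0.67, SE 0.09), and the death-promoting Bmf (log2FC -1.03, SE 0.14) fell. Bad, another death-promoting member, rose by 0.64 (SE 0.09). Npas2 (-0.91) and Bad (0.34) were not called with the slope covariate. Immediate-early genes had 2 without WT library 1 or both KO 2 libraries in place of 4 falls. Circadian clock genes had 3 without WT library 1, WT library 3 or KO library 1 in place of 5 falls. P53 targets and BCL2 family had 2 with library size alone, without WT library 1 or KO library 2 and 3 without KO library 3 or both KO 2 libraries in place of 5 rises.

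Receptors of the cell surface changed in both directions. Among C-type lectins 8 of 27 rose and 6 fell (29.6% and 22.2%; 7 and 7 with the length correction, 3 and 2 with the slope covariate). Clec4a1, a lectin gene of the same family as Clec4n, stood at 8.59, 11.8 and 8.997 CPM in WT and 26.6, 25.1 and 23.8 CPM in KO (log2FC 1.36, SE 0.10, edgeR adjusted p = 2.2e-06). Clec12a, an inhibitory receptor for uric acid crystals, stood at 345, 338 and 299 CPM in WT and 188, 143 and 191 CPM in KO (log2FC -0.91, SE 0.14, edgeR adjusted p = 3.2e-04). Clec7a, which encodes the β-glucan receptor dectin-1, changed by -0.43 (SE 0.08), so dectin-1 and dectin-2 genes moved in opposite directions. Of 9 Fc receptor genes 3 rose and 3 fell (33.3% and 33.3%; 2 and 3 with the length correction, 2 and 2 with the slope covariate). Fcgr4, an activating receptor for IgG, stood at 18.9, 25.03 and 23.1 CPM in WT and 60.3, 48.6 and 47.8 CPM in KO (log2FC 1.22, SE 0.16, edgeR adjusted p = 9.5e-05) and Fcgrt, which encodes the neonatal Fc receptor, rose by 0.79 (SE 0.09). Fcrls, an Fc receptor-like gene, stood at 371, 309 and 320.4 CPM in WT and 96.4, 64.9 and 115 CPM in KO and fell by a log2 fold change of -1.85 with an SE of 0.20 (edgeR adjusted p = 2.7e-05). Of 28 paired immunoglobulin-like receptors 6 rose and 7 fell (21.4% and 25%; 3 and 7 with the length correction, 1 and 4 with the slope covariate). Siglec1, the sialic acid receptor sialoadhesin, stood at 28.4, 17.8 and 22.5 CPM in WT and 8.56, 8.87 and 9.86 CPM in KO (log2FC -1.33, SE 0.18, edgeR adjusted p = 1.1e-04), Siglecf fell too (log2FC -1.43, SE 0.12), and the CD47 receptor gene Sirpa had 3238 ± 154 CPM in WT and 1969 ± 215 CPM in KO (log2FC -0.72, SE 0.08). Pilrb2, an activating member, rose by 1.49 (SE 0.23). The WT and KO libraries of Clec4a1, Fcgr4, Siglec1 and Pilrb2 did not overlap. Clec7a (-0.31) was not called with the slope covariate. Fc receptors had 1 without both KO 2 libraries in place of 3 falls. Paired immunoglobulin-like receptors had 3 with library size alone in place of 6 rises.

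**Figure D4:**
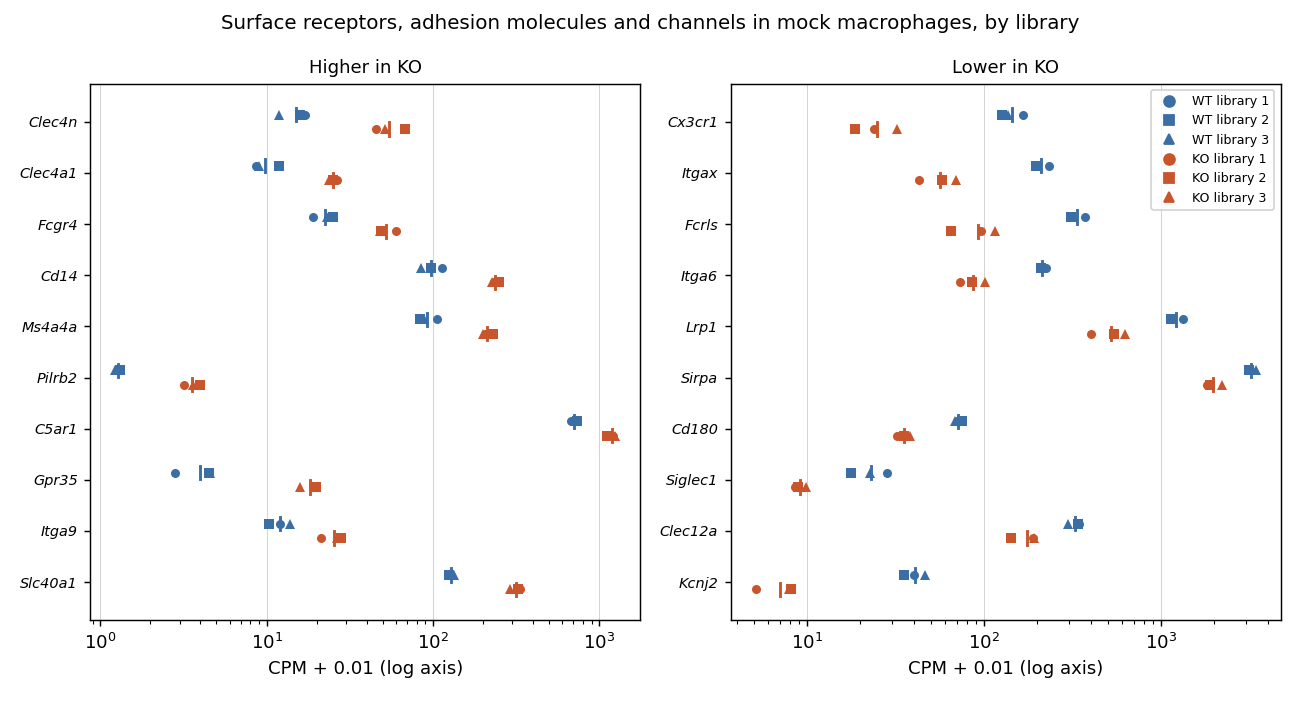
Level of 10 surface genes that rose (left) and 10 that fell (right) in each mock library, in CPM with 0.01 added on a log axis, for receptors, integrins, transporters and a channel that the text names and that were chosen with their values known. Blue marks are WT and orange marks KO libraries, shapes give the library number and short vertical lines the mean of 3, and for each gene the 2 genotypes do not overlap.

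Receptors for microbial products included Cd14, the lipopolysaccharide co-receptor gene, at 113, 97.1 and 84.4 CPM in WT and 232, 249 and 226 CPM in KO (log2FC 1.26, SE 0.14, edgeR adjusted p = 2.2e-05), and Tlr2, the receptor gene for bacterial lipoproteins, at 39.8 ± 2.79 CPM in WT and 53.1 ± 6.12 CPM in KO (log2FC 0.42, SE 0.10). Cd180, a Toll-like receptor homologue, stood at 70.3, 74.7 and 68.9 CPM in WT and 32.1, 35.2 and 38.2 CPM in KO (log2FC -1.02, SE 0.09, edgeR adjusted p = 3.6e-06), and Tlr7, the sensor gene for single-stranded RNA, changed by -0.69 (SE 0.11). Over the whole class of Toll-like receptors and adaptors 5 of 24 rose and 6 fell (20.8% and 25%; 3 and 4 with the length correction, 4 and 1 with the slope covariate). Of the 8 measured Ms4a genes, tetraspan proteins of leukocytes, 3 rose and 0 fell (37.5% and 0%; 3 and 1 with the length correction, 2 and 1 with the slope covariate), among them Ms4a4a, with 92.6 ± 12.2 CPM in WT and 212 ± 16.2 CPM in KO (log2FC 1.19, SE 0.09), and Ms4a6d (log2FC 0.71, SE 0.08). Uptake receptors for lipoproteins and dying cells fell more often than they rose, 10 against 4 of 24 (16.7% and 41.7%; 3 and 9 with the length correction, 4 and 3 with the slope covariate). Lrp1, a large endocytic receptor, stood at 1329.9, 1132 and 1166 CPM in WT and 399.9, 540.4 and 628 CPM in KO (log2FC -1.21, SE 0.13, edgeR adjusted p = 2.1e-05), and Axl, a receptor for the apoptotic cell bridge GAS6, had 227 ± 38.5 CPM in WT and 117 ± 20.6 CPM in KO (log2FC -0.96, SE 0.16). Cd5l, a secreted scavenger protein of macrophages, changed by -1.21 (SE 0.23). Tlr7 (-0.32) and Axl (-0.49) were not called with the slope covariate. Toll-like receptors and adaptors had 3 without WT library 1, WT library 3 or KO library 1 in place of 6 falls.

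For chemotaxis and communication, 7 of 19 chemoattractant receptors rose and 4 fell (36.8% and 21.1%; 6 and 5 with the length correction, 4 and 3 with the slope covariate). Fpr1, the receptor gene for formylated bacterial peptides, stood at 0.609, 1.18 and 0.985 CPM in WT and 2.66, 5.19 and 2.95 CPM in KO (log2FC 1.96, SE 0.44, edgeR adjusted p = 0.0035). C5ar1, the receptor gene for complement C5a, had 711 ± 31.7 CPM in WT and 1190.2 ± 73.1 CPM in KO (log2FC 0.74, SE 0.08) and Ccr1 rose by 0.78 (SE 0.11). Cx3cr1 and Ccr2 were thus among 4 fallers in a class where most calls were rises. Of 21 chemokine ligand genes 6 rose and 2 fell (28.6% and 9.52%; 7 and 3 with the length correction, 5 and 1 with the slope covariate). Cxcl2, a neutrophil attractant, rose from a low level, with 0.318 ± 0.119 CPM in WT and 1.36 ± 0.369 CPM in KO (log2FC 2.12, SE 0.37). Among inflammatory cytokines and enzymes Osm, which encodes oncostatin M, rose by 1.17 (SE 0.12), and Tnf stood at 6.35, 7.29 and 6.20 CPM in WT and 3.61, 3.59 and 3.83 CPM in KO (log2FC -0.85, SE 0.12, edgeR adjusted p = 1.7e-04). Growth factors and their receptors fell more often than they rose, 16 against 7 of 43 (16.3% and 37.2%; 8 and 13 with the length correction, 8 and 5 with the slope covariate). Gdf15, a stress-induced TGF-β family member, had 10.9 ± 0.763 CPM in WT and 26.1 ± 1.43 CPM in KO (log2FC 1.26, SE 0.15), and Pdgfb, a platelet-derived growth factor gene, stood at 76.6, 65.2 and 57.7 CPM in WT and 23.3, 26.2 and 30.5 CPM in KO (log2FC -1.32, SE 0.13, edgeR adjusted p = 1.4e-05). Of 58 interferon-stimulated genes 7 rose and 7 fell (12.1% and 12.1%; 6 and 8 with the length correction, 0 and 3 with the slope covariate), with both shares below those of all genes. Of 11 genes of MHC class II and its regulators 5 fell and 1 rose (9.09% and 45.5%; 0 and 6 with the length correction, 0 and 1 with the slope covariate), and the transactivator gene Ciita, at 3.62, 2.67 and 2.85 CPM in WT and 1.08, 1.13 and 1.06 CPM in KO, changed by -1.48 (SE 0.24). Fpr1 (2.67) differed by more than 1.5-fold from the values above with the slope covariate. Chemokine and chemoattractant receptors had 4 without WT library 1, KO library 2 or both KO 2 libraries in place of 7 rises. Chemokine ligands had 2 among genes with a mean log2 CPM of at least 1 in place of 6 rises. MHC class II and its regulators had 3 without WT library 1 or KO library 3 in place of 5 falls.

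Other G protein-coupled receptors and channels fell more often than they rose. Of 82 such receptor genes 28 fell and 13 rose (15.9% and 34.1%; 17 and 26 with the length correction, 5 and 7 with the slope covariate). S1pr1, a receptor gene for sphingosine phosphate that rose, had 135 ± 9.10 CPM in WT and 190.1 ± 8.79 CPM in KO (log2FC 0.49, SE 0.08), and P2ry1, a receptor gene for ADP, stood at 7.18, 7.67 and 8.28 CPM in WT and 2.75, 2.73 and 3.32 CPM in KO (log2FC -1.39, SE 0.14, edgeR adjusted p = 1.3e-05). Gpr18, a receptor gene of lymphocytes and macrophages, fell too (log2FC -1.91, SE 0.26), while the adenosine receptor gene Adora2b rose by 0.94 (SE 0.13). Potassium channels had 6 falls and 1 rise among 18 (5.56% and 33.3%; 1 and 7 with the length correction, 0 and 3 with the slope covariate) and a median of -0.61. Kcna3, the voltage-gated channel Kv1.3, stood at 12.1, 8.44 and 8.997 CPM in WT and 2.39, 2.87 and 3.53 CPM in KO (log2FC -1.74, SE 0.19, edgeR adjusted p = 1.9e-05). Kcnn4, the calcium-activated channel KCa3.1, was among the falls, with 487 ± 2.11 CPM in WT and 285 ± 35.2 CPM in KO (log2FC -0.77, SE 0.09), and KO lay below WT in every library of both genes. Of 176 solute carriers outside the mitochondrial family 34 rose and 46 fell (19.3% and 26.1%; 32 and 35 with the length correction, 13 and 7 with the slope covariate). Slc27a6, a fatty acid transport protein gene, stood at 8.49, 8.15 and 7.83 CPM in WT and 1.77, 2.21 and 2.44 CPM in KO (log2FC -1.92, SE 0.16, edgeR adjusted p = 3.2e-06). Gpr18 (-1.31) differed by more than 1.5-fold from the values above with the slope covariate. G protein-coupled receptors outside chemoattractant receptors had 8 among genes with a mean log2 CPM of at least 1 in place of 13 rises. Potassium channels had 3 without WT library 1 in place of 6 falls.

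Genes of adhesion, matrix and the cytoskeleton moved in both directions. Of 31 integrins and their partners 11 fell and 7 rose (22.6% and 35.5%; 7 and 12 with the length correction, 3 and 5 with the slope covariate). Itgax, which encodes CD11c, stood at 231, 197 and 199.7 CPM in WT and 42.9, 57.5 and 69.1 CPM in KO (log2FC -1.89, SE 0.15, edgeR adjusted p = 3.3e-06). Itga6, the laminin receptor subunit, stood at 223, 208 and 209 CPM in WT and 72.7, 85.1 and 101 CPM in KO (log2FC -1.30, SE 0.14, edgeR adjusted p = 2.1e-05), and Tln1, which encodes talin that links integrins to actin, had 601 ± 73.8 CPM in WT and 263 ± 64.9 CPM in KO (log2FC -1.19, SE 0.16). All 3 KO libraries were far below all WT libraries for Itgax and Itga6. Itga9, a subunit that binds tenascin and osteopontin, rose, at 11.99, 10.3 and 13.9 CPM in WT and 21.1, 28.2 and 26.6 CPM in KO (log2FC 1.07, SE 0.15). Tetraspanins were divided, with Cd81 (log2FC -0.68, SE 0.09) and Cd9 (log2FC -0.41, SE 0.07) lower and Tspan3 (log2FC 0.81, SE 0.06) higher. In the matrix and protease list 12 of 48 rose and 10 fell (25% and 20.8%; 14 and 7 with the length correction, 13 and 2 with the slope covariate). Mmp8, the collagenase of neutrophils, had 95.2 ± 4.79 CPM in WT and 209 ± 24.7 CPM in KO (log2FC 1.14, SE 0.09) and Mmp9, a gelatinase of neutrophils and macrophages, 10.1 ± 2.95 CPM in WT and 32.8 ± 16.1 CPM in KO (log2FC 1.70, SE 0.39). Mmp8 is itself among the neutrophil markers summed above. Mmp9 stood at 6.70, 11.97 and 11.6 CPM in WT and 17.7, 49.7 and 30.96 CPM in KO. KO library 2 was its highest, as in the sum of the neutrophil markers. Mmp9 is on the list of osteoclast markers, where 3 of the 6 measured rose, Mmp9 among them, and 0 fell. The part of neutrophils or osteoclasts in its rise was not tested. Plau, which encodes urokinase, stood at 11.96, 10.6 and 10.8 CPM in WT and 2.39, 2.76 and 3.11 CPM in KO (log2FC -2.01, SE 0.15, edgeR adjusted p = 2.2e-06), Fn1, which encodes fibronectin, at 33.5, 32.2 and 42.6 CPM in WT and 7.80, 13.6 and 17.1 CPM in KO (log2FC -1.49, SE 0.24, edgeR adjusted p = 4.4e-04), and Tgfbi, a secreted collagen-binding protein, at 306 ± 29.6 CPM in WT and 145 ± 25.4 CPM in KO (log2FC -1.08, SE 0.13). The highest KO library of Plau and of Fn1 was below the lowest WT library. Tln1 (-0.52), Itga9 (1.73) and Mmp9 (2.37) differed by more than 1.5-fold from the values above with the slope covariate. Fn1 (-0.51) was not called with the slope covariate. Extracellular matrix and proteases had 5 without WT library 1, WT library 3 or KO library 1 and 6 without WT library 2, KO library 2 or both KO 2 libraries in place of 10 falls.

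Motors of transport along filaments fell more often than they rose. Of 69 kinesins, dyneins and myosins 31 fell and 4 rose (5.8% and 44.9%; 6 and 22 with the length correction, 2 and 7 with the slope covariate). Myo10, a motor that carries cargo to the tips of filopodia, stood at 71.5, 55.9 and 62.7 CPM in WT and 11.7, 18.3 and 22.4 CPM in KO (log2FC -1.86, SE 0.18, edgeR adjusted p = 1.0e-05). Mitotic kinesins are part of the motor class and were among its largest falls. Of 61 Rab GTPases and effectors matched by name 10 rose and 8 fell (16.4% and 13.1%; 9 and 6 with the length correction, 2 and 3 with the slope covariate), and Rab20, a GTPase of phagosome maturation, rose by 1.18 (SE 0.11). Kinesins, dyneins and myosins had 1 with library size alone, without WT library 1, KO library 1 or KO library 3 and 2 in the 6 mock libraries alone, without KO library 2 or both KO 2 libraries in place of 4 rises. Rab GTPases had 17 without WT library 2 in place of 10 rises, and 4 without both KO 2 libraries and 5 without WT library 3 in place of 8 falls.

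The KO effect was compared with that in the libraries that received IL-4. The test of the difference, KO against WT with IL-4 minus KO against WT in mock, called 101 of 13715 genes (0.736%), and 78 of these were among the 4731 called in mock. A gene that this test does not call is not shown to differ equally in both conditions. Within a genotype, libraries of the same number deviated together over 8198 genes, with correlations of 0.3, 0.486 and 0.408 in WT and 0.554, 0.582 and 0.555 in KO. With the culture as a paired term, an alternative chosen after the data had been seen, the same test called 1596 genes. Fn1 was lower in KO in mock (-1.49) and near equal with IL-4 (0.12), a difference of 1.61 (SE 0.33, edgeR adjusted p = 0.042). In mock Fn1 (-0.51) was not called with the slope covariate. Thbs1 was higher in both conditions, with log2 fold changes of 3.36 and 4.83 and a difference of 1.48 (SE 0.31, edgeR adjusted p = 0.046).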

How the data were processed

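RNA of 12 libraries of cultured mouse macrophages was sequenced, and the 3 KO mock and 3 WT mock libraries were compared. The submitters' processing notes name bcl2fastq, STAR (2.7.2b), Subread (1.6.5) with its featureCounts, edgeR and the build mm10. Neither library kit nor strandedness is named there, and reads of overlapping, antisense and near-identical genes cannot be told apart. Per the file headers, the deposited table holds raw read counts per gene. The exonic length of each gene in bases is also the authors', per the file headers. The authors' deposited log2 values and fold changes and their deposited p-values were not used.

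The quasi-likelihood test of edgeR 4.0.16 (R 4.3.3) was applied to the counts, with TMM scaling, over 4 groups (8 residual degrees of freedom, common dispersion 0.01147). filterByExpr removed 0 of 13715 genes, whose lowest total over the 12 libraries was 50 counts. P-values are two-sided and adjusted by Benjamini-Hochberg over all genes. The length correction is an offset from a spline with 5 degrees of freedom of each library's log2 deviation on log2 length. Scripts were tested on simulated data.

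The members and the 61 gene lists were chosen with earlier results of these data known. A few results are not reported here. Named genes were Stk11, Lyz2, the 12 largest rises and 12 largest falls that passed the threshold, did not overlap between groups and averaged at least 3 in log2 CPM (without gene models, ribosomal proteins and histones), cell type markers, and from each list up to 5 called members a direction by size of change averaging at least 0 in log2 CPM. The text names a choice of these. Alternatives were other scalings, filters, DESeq2, limma-voom, a replicate block, both treatments of length and leaving out libraries. Equal numbers did not pair WT with KO libraries (correlations of deviations -0.083, -0.328 and -0.063). Replicates differed by more than sampling noise (chi-square per degree of freedom 10.6 to 84.6).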

Additional observations from a re-analysis of the deposited data

Results flagged for a closer look

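For 12 genes named in the report, the KO against WT difference was not the same in mock and with IL-4 by a test of the difference itself, the interaction term of the same edgeR fit, which called 101 of 13715 genes (0.736%). Differences are log2 fold changes with IL-4 minus those in mock.

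Of them 5 fell in mock and had a value above 0 with IL-4, which was itself called for Clec7a (edgeR adjusted p = 0.007) and not for the other 4. Fn1 had -1.49 in mock and 0.12 (SE 0.22) with IL-4, a difference of 1.61 (SE 0.33, edgeR adjusted p = 0.042). Bmf had -1.03 and 0.17 (SE 0.14), a difference of 1.20 (SE 0.20, edgeR adjusted p = 0.021). Tlr7 had -0.69 and 0.16 (SE 0.11), a difference of 0.85 (SE 0.16, edgeR adjusted p = 0.036). Clec7a had -0.43 and 0.37 (SE 0.08), a difference of 0.80 (SE 0.12, edgeR adjusted p = 0.015). For Ulk1 the values were -0.54 and 0.21 (SE 0.08), a difference of 0.74 (SE 0.11, edgeR adjusted p = 0.015). In mock, Fn1 (-0.51), Tlr7 (-0.32) and Clec7a (-0.31) were not called with the slope covariate, while Bmf and Ulk1 were. The mean slope of expression on length differed between KO and WT by -0.17 in mock and -0.03 with IL-4. The part of gene length in these differences was not tested.

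Rises that were smaller with IL-4 were those of Ier3 (1.89 and 0.79, a difference of -1.10, SE 0.17, edgeR adjusted p = 0.015), Adora2b (0.94 and -0.05, -0.99, SE 0.17, edgeR adjusted p = 0.024) and Tspan3 (0.81 and 0.36, -0.45, SE 0.09, edgeR adjusted p = 0.036). Larger with IL-4 were the rises of Thbs1 (3.36 and 4.83, 1.48, SE 0.31, edgeR adjusted p = 0.046), Vegfa (1.58 and 2.59, 1.02, SE 0.20, edgeR adjusted p = 0.036) and Nr4a1 (1.95 and 2.91, 0.96, SE 0.19, edgeR adjusted p = 0.038). These genes are on the list of CREB and CRTC targets, which was chosen with earlier results of these data known. Dusp1, Fos and Sik1, named with that list, were not among the 12 genes. Ep300 fell in mock (-1.02) and had -0.32 with IL-4 (0.70, SE 0.15, edgeR adjusted p = 0.046). With the culture as a paired term, the adjusted p of these 12 differences ran from 1.1e-06 to 0.0046.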

How the results depend on the processing

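Of the 137 named genes that were called, 114 kept their direction and call in every alternative, and the other 23 lost it with the library length slope as a covariate alone. That covariate left 1279 called genes in place of 4731, 566 higher and 713 lower, and since it nearly coincides with genotype in the mock libraries, the length of genes and the genotype cannot be told apart there. Leaving out 1 library gave 3293 to 4639 called genes, 1483 to 2376 higher and 1810 to 2336 lower. With all other alternatives these 3 counts over all genes stayed within 1.5 times of the reported ones. Counts of 3 or more in a class that moved further are given with the class. The correlation with length was -0.484 for genes with a mean log2 CPM of at least 3, against -0.294 over all genes, and -0.317 to -0.245 when 1 library was left out. The count of genes whose KO effect differed between mock and IL-4 was 101, against 1596 with the culture within genotype as a paired term, 108 with the replicate number as a block and 107 with the length correction. Across genotypes the libraries share only a number, and with the replicate number as a block 4604 genes were called in KO against WT, with no call of a named gene changed. Genes under 1 CPM rest on few reads, and values there are limited by counting.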
